A study of Mus musculus with 5 samples.

Results

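Diacylglycerol kinases and a set of ubiquitin ligases with their adaptors, genes known for restraining T cell receptor signalling and for the unresponsive state called anergy, were examined in tumor-specific mouse CD4+ T cells. The members were the 10 genes Dgka, Dgkz, Dgkd, Dgke, Cbl, Cblb, Itch, Rnf128, Ndfip1 and Ndfip2. They were chosen by gene symbol, and every probe set that the platform annotation assigns to one of these symbols alone was taken, which gave 28 of the 45037 probe sets on the array. Activated cells (3 arrays) were CD4+ GB113+ T cells from TCR-transgenic SCID mice of BALB/c background aged 7 to 12 weeks, sorted on day 8 at a purity of at least 95% from the axillary lymph nodes draining a flank injection of 100000 MOPC315 myeloma cells in 250 µl Matrigel, with the nodes of 12 to 15 mice pooled. Naive cells (2 arrays) were CD4+ T cells from pooled lymph nodes of uninjected TCR-transgenic SCID mice of the same background and age, handled in the same way per the design notes, which state no purity for them. All mice thus carried the tumor-specific receptor transgene and the SCID defect, which leaves few other lymphocytes, and each array was an independent experiment. Cells given Matrigel without tumor, and cells made anergic, were not analysed here, so the comparison is between activated and naive cells.

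Antigen receptor signalling makes diacylglycerol at the membrane, which recruits the Ras activator RasGRP1 and protein kinase C theta. Diacylglycerol kinases end this signal by phosphorylating the lipid to phosphatidic acid, and Dgka and Dgkz are the isoforms known for this in T cells. The ligases Cbl, Cblb, Itch and Rnf128 (the protein GRAIL) attach ubiquitin to signalling proteins or receptors, and the membrane proteins Ndfip1 and Ndfip2 recruit and activate ligases of the NEDD4 family, to which Itch belongs. Mouse T cells lacking Cblb, Itch, Ndfip1 or Dgkz are known for exaggerated responses to antigen.

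In activated cells Ndfip1, Cblb and Dgkz were higher and Dgka was lower, while no probe set of Dgkd, Dgke, Cbl, Itch, Rnf128 or Ndfip2 passed the test. Values are probe set intensities on a linear scale, and a probe set entered the test when at least 2 arrays had it brighter than 40% of their probe sets. Of the 28 member probe sets, 26 were tested, and 7 were higher and 1 was lower at a threshold of 0.05 on limma's p-values, adjusted by Benjamini and Hochberg's method over all 29240 probe sets tested. That is 30.8% of those tested, against 7.74% of all probe sets tested, of which 4.8% were higher and 2.94% lower. The 26 had a median log2 fold change of 0.14, against -0.03 for all probe sets tested. On 14 of the 26, or 53.8%, all activated arrays lay on one side of both naive arrays, against 39.1% of all probe sets tested. Activated arrays were the higher ones on 10 of these and the lower ones on 4, against 18.8% and 20.3% of all probe sets tested. The members were picked with earlier results of these data known, so these shares describe them and do not test the group. On arrays of bulk RNA, more or fewer cells of a type and more or less RNA per cell cannot be told apart.

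**Figure D1:**
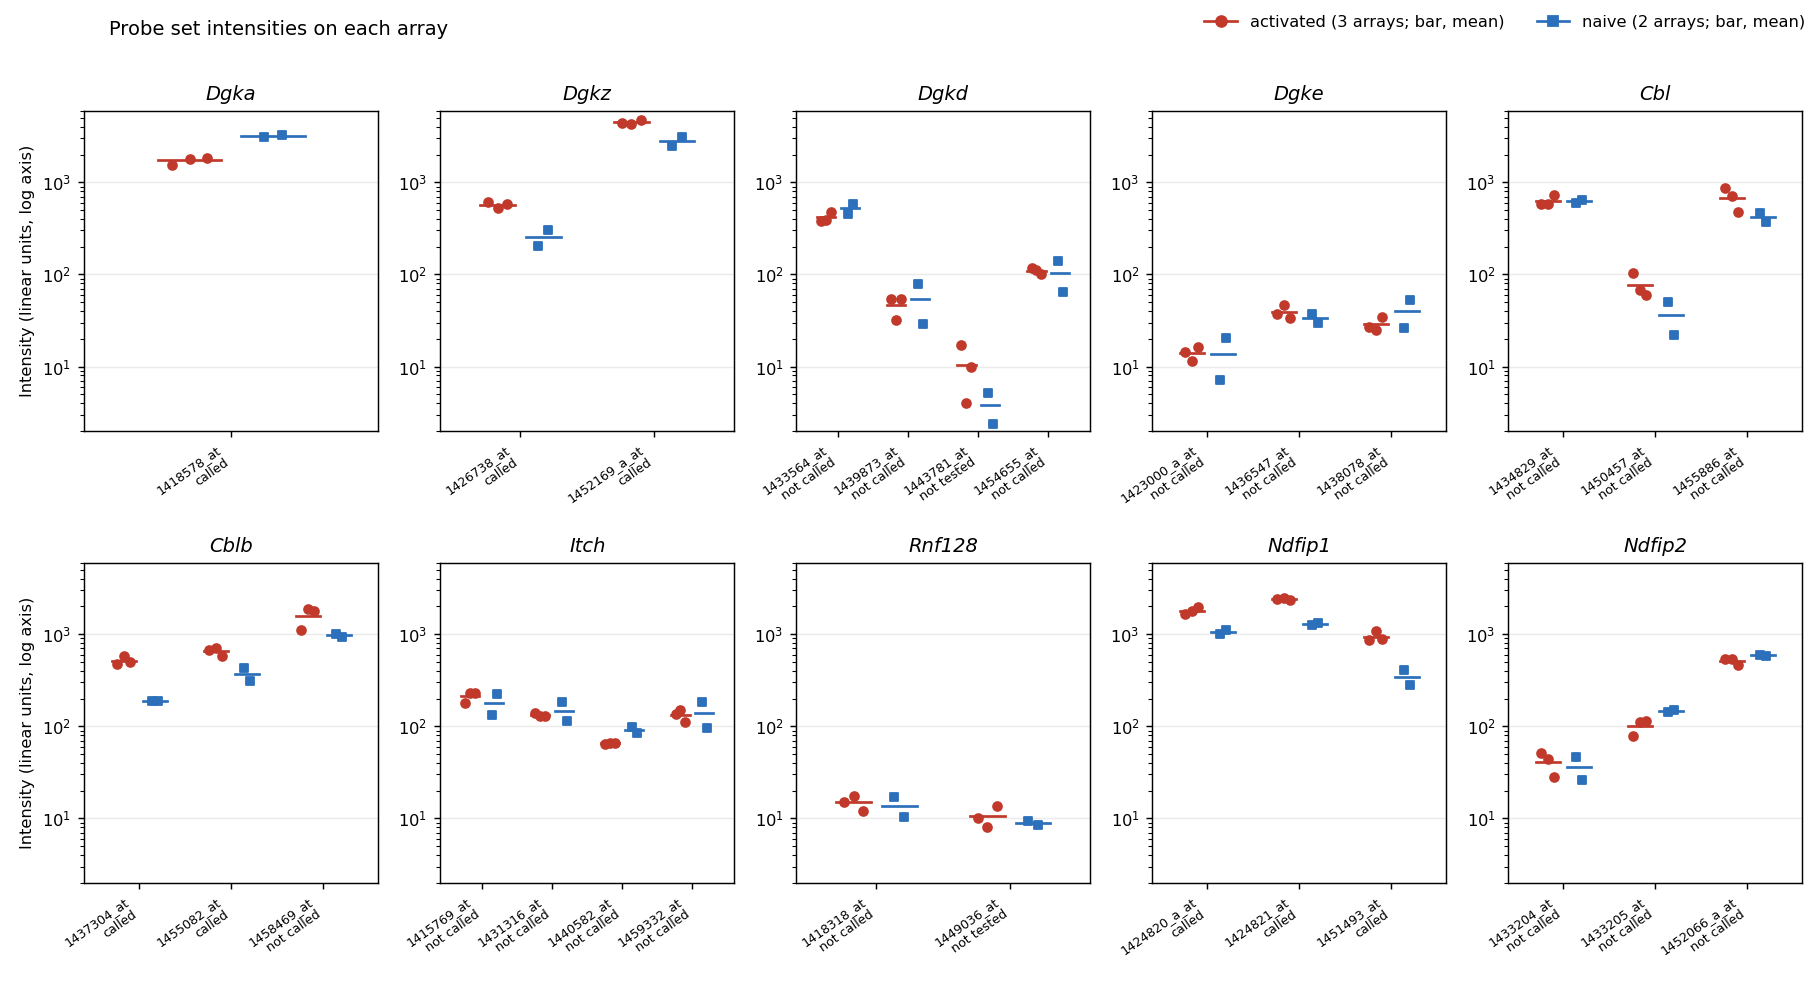
Intensity of each probe set (log axis, linear intensity units) on the 3 activated arrays (red circles, left) and the 2 naive arrays (blue squares, right), with 1 panel per gene and bars at the group means. The red points lie above the blue ones on every probe set of Dgkz, Cblb and Ndfip1, and below them on that of Dgka; the points of Rnf128 and of most probe sets of Dgke lie in the lowest part of the axis.

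The arrays carried the T cell identity of the labels. All 7 CD4 T cell markers with a probe set (of 8 listed, Cd4 and Cd3e among them) lay above the filter intensity, 10.5 to 13.4 among arrays, on all 5 arrays. Markers of other cells were uneven between arrays. The 7 myeloid markers, of which 6 passed the filter, summed to 2812, 125 and 768 in activated replicates 1 to 3, against 305 and 183 in the naive pair. The 7 NK cell markers found, of 8 listed, summed to 4197, 850 and 766 in activated replicates 1 to 3, against 1323 and 948 in the naive pair, with Klra8 near 0 throughout. By these sums, activated replicate 1 was the high array in both lists. Cd14 and Adgre1 were highest in activated replicate 3, however, and Prf1 in naive replicate 1. The sums of dendritic and neutrophil markers were also highest in activated replicate 1, at 2455 and 867. There H2-Aa and Cd74 were at 1175 and 1096, and S100a8 and S100a9 at 457 and 379. Itgax, Flt3 and Siglech were also highest in that array. Zbtb46 was instead highest in activated replicate 2 (45.3), Xcr1 in naive replicate 2 (13.2), and Mpo and Elane in naive replicate 1 (25.6 and 17.8). Cd8b1, a CD8 T cell marker, was at 327, 247 and 275 in the 3 activated samples, against 798 and 996 in the naive pair. Cd8a, the other CD8 marker listed, was dimmer and overlapped between groups, at 79.2, 24.4 and 18.7 in the 3 activated samples, against 54 and 44.6 in the naive pair. The part of these differences in the results below was not tested. Without activated replicate 1, 6 member probe sets were higher and 1 lower: Dgkz 1452169_a_at and Cblb 1455082_at lost their calls, and Cblb 1458469_at gained one. Over all 28208 probe sets tested without that array, 913 were higher and 489 lower. The hybridisation control bioC also split the arrays, with activated replicate 3 and naive replicate 2 on its low side, and values within each side are given with the members that passed.

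Among the diacylglycerol kinases, both known T cell isoforms changed, in opposite directions. Dgka, which dampens the diacylglycerol signal and is known as abundant in resting T cells, read 1538, 1792 and 1856 in activated replicates 1 to 3, against 3141 and 3247 in the naive pair. The 3 activated values all lay below both naive values, and activated replicate 1 was the lowest. The mean was 1.85-fold lower, at 1728 ± 168 (SD, n = 3) after activation and 3194 ± 75.3 (SD, n = 2) in the naive state. On the scale of log2(intensity + 16), the log2 fold change was -0.88 ± 0.16 (SE, adjusted p = 0.0083 in limma's test). The log2 fold change was -0.80 among the arrays low in bioC and -0.91 among those high in it. Dgka has 1 probe set on this array, so no other probe set bears on it. Its call was lost without activated replicate 2, at -0.91 (adjusted p = 0.052), and without naive replicate 2, at -0.86 (adjusted p = 0.061).

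Dgkz encodes the zeta isoform, which in mouse T cells limits Ras activation after receptor engagement. On probe set 1426738_at it read 608, 524 and 576 in activated replicates 1 to 3, against 205 and 306 in the naive pair. The groups did not overlap, but the naive arrays lay further apart than the activated ones. The means were 570 ± 42.5 (SD, n = 3) after activation and 256 ± 71.3 (SD, n = 2) in the naive state, 2.23-fold higher, with a log2 fold change of 1.13 ± 0.20 (SE, limma adjusted p = 0.0071). Probe set 1452169_a_at, whose suffix marks probes shared by several transcripts of the gene, had 4368, 4306 and 4786 in activated replicates 1 to 3, against 2479 and 3129 in the naive pair. It too did not overlap between groups, with means of 4487 after activation and 2804 in the naive state and a smaller log2 fold change of 0.68 ± 0.17 (SE, limma adjusted p = 0.034). The bioC sides gave 0.88 and 1.39 for 1426738_at and 0.61 and 0.80 for 1452169_a_at. Leaving out single arrays moved the log2 fold change of 1426738_at from 0.86 to 1.40. The call of 1426738_at held under all 16 alternatives run on it, while that of 1452169_a_at was lost under 8 of 17. Those 8 included leaving out any array, where the log2 fold change ran from 0.52, without naive replicate 1, to 0.85, without naive replicate 2.

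The other kinases of the group, Dgkd (delta) and Dgke (epsilon, which prefers arachidonate-containing diacylglycerol), gave no call. The brightest probe set of Dgkd, 1433564_at, had 384, 390.5 and 478 in activated replicates 1 to 3, against 457 and 583 in the naive pair. The groups overlapped, and the log2 fold change of -0.30 had a 95% interval from -0.72 to 0.11 (limma adjusted p = 0.38). Its 2 other tested probe sets had log2 fold changes of -0.08 and 0.16, and on both the naive arrays lay far apart, at 78.4 and 28.8 on 1439873_at and at 140.4 and 65.1 on 1454655_at. The fourth, 1443781_at, passed the filter on too few arrays and was not tested, with 17.3, 4.0 and 9.8 in the 3 activated samples, against 5.2 and 2.4 in the naive pair. Dgke was dim on all 3 probe sets, at 11.4 to 46.7 in the 3 activated samples, against 7.2 to 53.1 in the naive pair. Its log2 fold changes of 0.04, 0.15 and -0.28 did not pass, and intervals as wide as -0.58 to 0.66 leave room for changes of either sign.

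**Figure D2:**
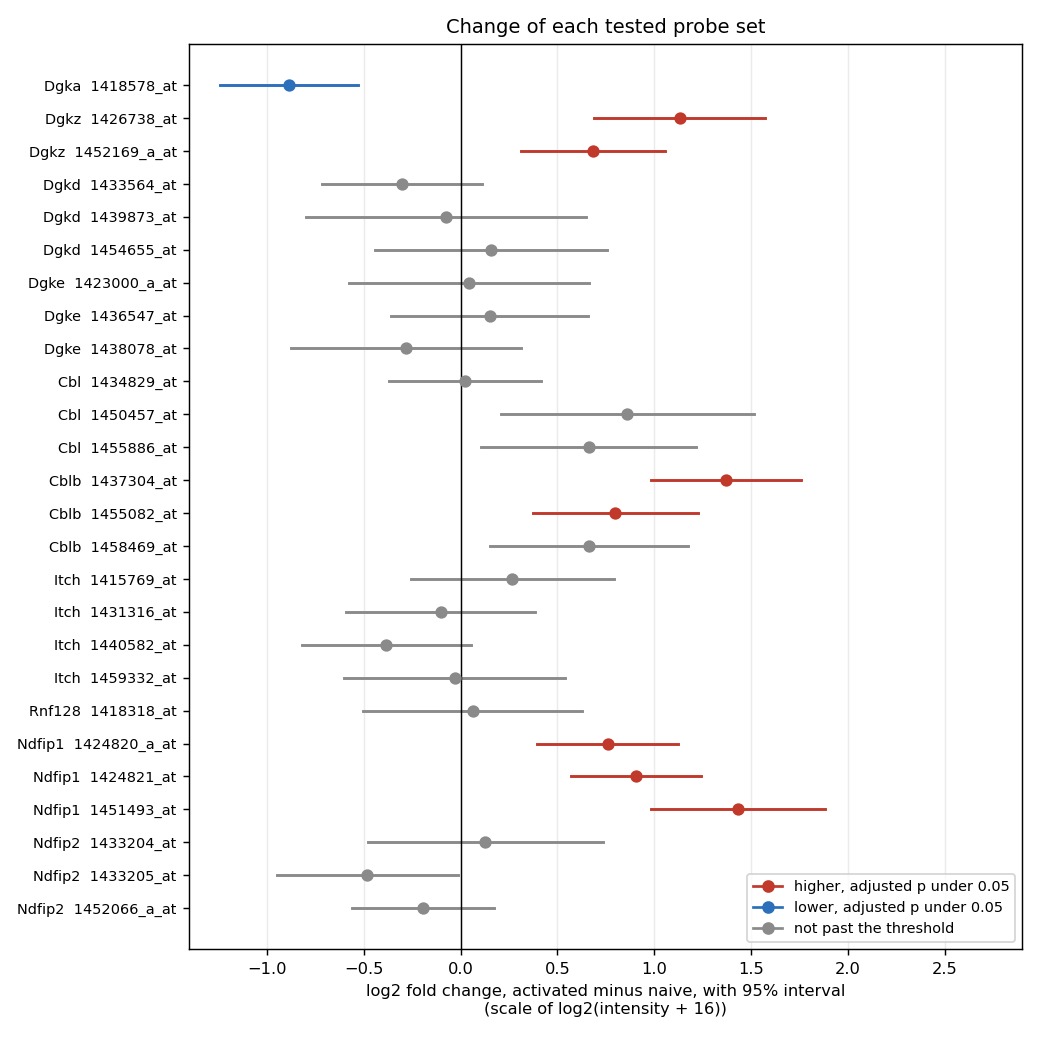
Log2 fold change (activated minus naive, scale of log2(intensity + 16)) of the 26 tested probe sets, with 95% intervals from limma's moderated test. The 7 red intervals, of Dgkz, Cblb and Ndfip1, lie above 0, the blue one, of Dgka, lies below 0, and the grey ones did not pass the threshold, those of 1450457_at and 1455886_at of Cbl and 1458469_at of Cblb lying above 0, and that of 1433205_at of Ndfip2 just below 0, before adjustment.

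Of the Cbl ligases, Cblb rose and the probe sets of Cbl did not pass. Cblb, the RING ligase that in mouse T cells makes activation depend on CD28, read 470, 586 and 499 in activated replicates 1 to 3 on probe set 1437304_at, against 189.7 and 189.9 in the naive pair. No activated value came near the naive pair, which differed by less than 1 unit. The means were 518 ± 60.5 (SD, n = 3) after activation and 190 ± 0.14 (SD, n = 2) in the naive state, 2.73-fold higher, with a log2 fold change of 1.37 ± 0.17 (SE, limma adjusted p = 0.0011). On 1455082_at Cblb had 673, 712 and 584 in activated replicates 1 to 3, against 435 and 314 in the naive pair, a log2 fold change of 0.80 ± 0.19 (SE, limma adjusted p = 0.032). On 1458469_at, its brightest probe set, it had 1106, 1899 and 1782 in activated replicates 1 to 3, against 1013 and 938 in the naive pair. There activated replicate 1 lay close to the naive arrays and the other two well above them. The log2 fold change of 0.66 ± 0.23 (SE, limma adjusted p = 0.12) did not pass, and without activated replicate 1 it was 0.91 and passed (adjusted p = 0.023).

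All 3 probe sets of Cblb thus separated the groups, and the size of the change differed between them. The bioC sides gave 1.32 and 1.39 for 1437304_at and 0.86 and 0.65 for 1455082_at. The call of 1437304_at held under all 16 alternatives, with log2 fold changes from 1.19 to 1.44, and that of 1455082_at was lost under 5 of 16. These were no filter and no intensity trend, both at 0.80, and the omission of an activated array (0.78 without replicate 1, 0.74 without replicate 2) or of naive replicate 2 (0.57).

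Cbl (the protein c-Cbl), the closest relative of Cblb among the members and a negative regulator of receptor-linked tyrosine kinases, differed between its probe sets. On 1434829_at it had 581, 583 and 737 in activated replicates 1 to 3, against 593 and 647 in the naive pair, so the groups overlapped around a log2 fold change of 0.02 with a 95% interval from -0.37 to 0.42. On 1455886_at it had 871, 711 and 470.5 in activated replicates 1 to 3, against 467 and 367 in the naive pair. Activated replicate 3 there lay just above naive replicate 1, and the log2 fold change of 0.66 ± 0.25 (SE, limma adjusted p = 0.15) did not pass. On the dimmer 1450457_at it had 104, 68.1 and 60 in activated replicates 1 to 3, against 50.6 and 22.1 in the naive pair, with a log2 fold change of 0.86 ± 0.29 (SE, limma adjusted p = 0.11). Single arrays moved both values in either direction. The log2 fold change of 1455886_at was 0.90 (adjusted p = 0.037) without activated replicate 3, but 0.47 (adjusted p = 0.35) without activated replicate 1 and 0.49 (adjusted p = 0.45) without naive replicate 2. That of 1450457_at was 1.26 (adjusted p = 0.037) without naive replicate 1, but 0.46 (adjusted p = 0.47) without naive replicate 2.

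Ndfip1 rose on each of its 3 probe sets. Ndfip1 is a small membrane protein with PY motifs that bind the WW domains of NEDD4 family ligases, and through Itch it limits helper cytokine production in mice. On 1424821_at it read 2412, 2452 and 2375 in activated replicates 1 to 3, against 1247 and 1318 in the naive pair. The values of each group were nearly equal, and the groups lay far apart. The means were 2413 ± 38.4 (SD, n = 3) after activation and 1282 ± 50.2 (SD, n = 2) in the naive state, 1.88-fold higher, with a log2 fold change of 0.90 ± 0.15 (SE, limma adjusted p = 0.0053).

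On 1424820_a_at Ndfip1 had 1658, 1783 and 1986 in activated replicates 1 to 3, against 1001 and 1122 in the naive pair, a log2 fold change of 0.76 ± 0.16 (SE, limma adjusted p = 0.019). On 1451493_at it had 872, 1071 and 886 in activated replicates 1 to 3, against 410 and 278 in the naive pair, 2.74-fold higher in the mean. The log2 fold change there was 1.43 ± 0.20 (SE, limma adjusted p = 0.0020). The groups did not overlap on any of the 3 probe sets. The bioC sides gave 0.84 and 0.95 for 1424821_at, 0.82 and 0.77 for 1424820_a_at and 1.62 and 1.20 for 1451493_at. The calls of 1424821_at and 1451493_at held under all alternatives run on them (17 and 16), and that of 1424820_a_at was lost under 4 of 16, namely no intensity trend, at 0.76, and the omission of activated replicate 2 (0.77) or of either naive array (0.68 without replicate 1, 0.84 without replicate 2).

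**Figure D3:**
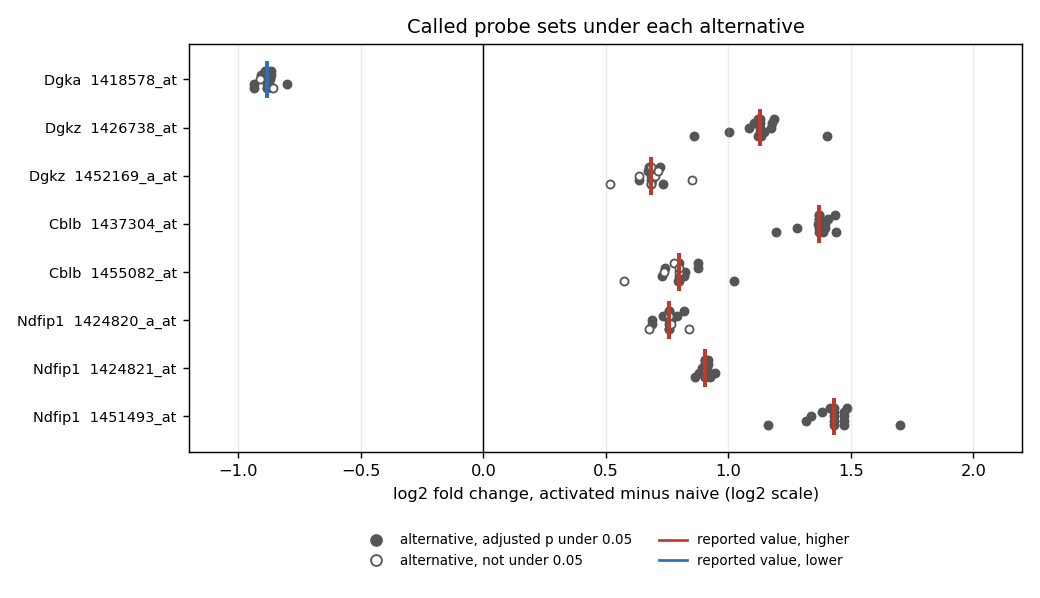
Log2 fold change (activated minus naive) of the 8 called probe sets under each alternative processing or left-out array, filled where the adjusted p stayed under 0.05 and open where it did not, with the reported value as a coloured line. All points keep the side of 0 of the reported value, and Dgkz 1426738_at, Cblb 1437304_at, Ndfip1 1424821_at and Ndfip1 1451493_at have filled points only.

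Ndfip2, the second adaptor of the pair, did not pass on any probe set. On 1452066_a_at, its brightest, it had 537, 537 and 465 in activated replicates 1 to 3, against 590.4 and 585 in the naive pair. On 1433205_at it had 78.1, 112 and 114 in activated replicates 1 to 3, against 144 and 149 in the naive pair. On both probe sets every activated value lay below the naive values, with log2 fold changes of -0.19 ± 0.16 (SE, limma adjusted p = 0.54) and -0.48 ± 0.21 (SE, limma adjusted p = 0.21). The third, 1433204_at, was dim, at 28.0 to 50.9 in the 3 activated samples, against 25.9 to 46.7 in the naive pair.

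Itch, the HECT ligase that Ndfip1 and Ndfip2 activate, had 4 probe sets and no call. On 1415769_at it had 180.5, 229.9 and 232 in activated replicates 1 to 3, against 133 and 227 in the naive pair, so the naive replicates differed more than the group means. The 95% interval of its log2 fold change of 0.27 ran from -0.26 to 0.79. On 1440582_at the activated values of 64.5, 66.6 and 65.9 lay below the naive values of 97.8 and 83.6, at a log2 fold change of -0.38 ± 0.20 (SE, limma adjusted p = 0.28). The log2 fold changes of 1431316_at and 1459332_at were -0.10 and -0.03. The activated arrays ran from 129 to 141 on the first and from 113 to 149.6 on the second. Naive replicate 1 was the highest array on both, at 183 and 185, and naive replicate 2 the lowest, at 113.5 and 97.

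Rnf128, whose product GRAIL is a transmembrane ligase induced in anergic T cells, was near the filter intensity in both groups. On 1418318_at it had 15.2, 17.4 and 12.1 in activated replicates 1 to 3, against 17.1 and 10.3 in the naive pair, with a log2 fold change of 0.06 and a 95% interval from -0.50 to 0.63. On 1449036_at it had 10.2, 8.0 and 13.5 in activated replicates 1 to 3, against 9.4 and 8.5 in the naive pair, and was not tested. At such intensities the arrays could not show whether the transcript differed.

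Promoter sequences were read for the genes that changed and had an entry in the RefSeq promoter table of build GRCm38.p6, as 250 bases ending just before an annotated start. The table matched 8 of the 10 members; Itch and Ndfip1 did not match. Cblb has 1 start in it, Dgkz has 2 and Dgka has 4, of which the most upstream is shown, and the arrays do not tell which start was used. Capitals mark GGAAA or its complement TTTCC, the core bound by NFAT, a factor known to induce anergy-linked genes when it acts without AP-1.
Cblb, chr16:52031299-52031548, plus strand: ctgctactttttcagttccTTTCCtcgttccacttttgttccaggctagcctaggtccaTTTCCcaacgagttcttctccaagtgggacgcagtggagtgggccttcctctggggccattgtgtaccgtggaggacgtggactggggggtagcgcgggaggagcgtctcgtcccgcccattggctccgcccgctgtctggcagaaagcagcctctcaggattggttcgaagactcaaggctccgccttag
Dgkz, chr2:91963564-91963813, minus strand: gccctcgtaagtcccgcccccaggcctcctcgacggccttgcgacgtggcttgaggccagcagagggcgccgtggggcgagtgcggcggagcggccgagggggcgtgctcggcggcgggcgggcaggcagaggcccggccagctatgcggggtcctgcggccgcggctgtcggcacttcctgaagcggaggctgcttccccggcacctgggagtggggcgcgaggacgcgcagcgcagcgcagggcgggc
Dgkz, chr2:91950349-91950598, minus strand: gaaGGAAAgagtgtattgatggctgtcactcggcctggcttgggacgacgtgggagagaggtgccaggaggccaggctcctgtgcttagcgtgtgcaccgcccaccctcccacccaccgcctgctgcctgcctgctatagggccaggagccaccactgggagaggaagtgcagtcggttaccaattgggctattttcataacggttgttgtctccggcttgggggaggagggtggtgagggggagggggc
Dgka, chr10:128745085-128745334, minus strand: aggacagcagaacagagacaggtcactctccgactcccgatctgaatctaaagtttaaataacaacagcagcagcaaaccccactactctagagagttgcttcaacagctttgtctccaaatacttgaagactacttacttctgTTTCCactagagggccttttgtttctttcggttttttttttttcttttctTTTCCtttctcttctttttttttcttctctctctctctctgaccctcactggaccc
The NFAT core occurred 2 times in the Cblb window, 0 and 1 times in the Dgkz windows and 2 times in the Dgka window, in the same order as printed, and 55.6% of all 32851 promoter windows of this length hold it on either strand. The EGR motif GCGTGGGCG, the FOXO motif GTAAACA and the AP-1 motif TGANTCA, searched on both strands, were in none of these 4 windows, and 0.536%, 3.17% and 6.75% of all windows hold them. With only the NFAT core present in them, matches of different kinds could not overlap. The Dgkz windows had 77.6% and 62.4% G and C, against a median of 52.4% over all windows, and the Cblb window had 58.8%. The Dgka window shown had 41.2%, and the 3 other Dgka windows had 59.2% to 72.4% G and C, with 0 to 2 NFAT cores each. These are matches of letters only.

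The other genes of these pathways were grouped into 8 lists, each gene taken on its brightest probe set. The lists too were chosen with earlier results of these data known, so their counts and medians describe them and do not test them. Over all 12873 genes tested in this way, 8.72% were called, 5.52% higher and 3.19% lower, with a median log2 fold change of -0.03. Of the other diacylglycerol kinases, 2 of 6 listed (Dgkh and Dgkq) were bright enough to test, and neither was called. Of 12 tested genes of diacylglycerol and Ras signalling, 1 was higher and 2 lower, with a median of -0.25. Prkch, protein kinase C eta, was at 875, 1155 and 967 in activated replicates 1 to 3, against 492 and 517 in the naive pair, a log2 fold change of 0.95 ± 0.17 (SE, limma adjusted p = 0.0087). Rasgrp2, an activator of Rap1, and Prkd2, a kinase downstream of diacylglycerol, were lower, with log2 fold changes of -0.90 and -0.66 (adjusted p = 0.041 and 0.035). Both calls were lost without the filter, with median centring and without the intensity trend. That of Rasgrp2 was also lost with array weights, and that of Prkd2 with the replicate number as a block. Rasgrp1, the Ras activator that diacylglycerol recruits, had 1017, 1176 and 1473 in activated replicates 1 to 3, against 1104 and 1451 in the naive pair, which overlap. The calls of Rasgrp2 and Prkd2 were lost on leaving out single arrays, any of the 5 for Prkd2, with log2 fold changes down to -0.58, and 4 of the 5 for Rasgrp2; that of Prkch was lost without activated replicate 2.

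**Figure D4:**
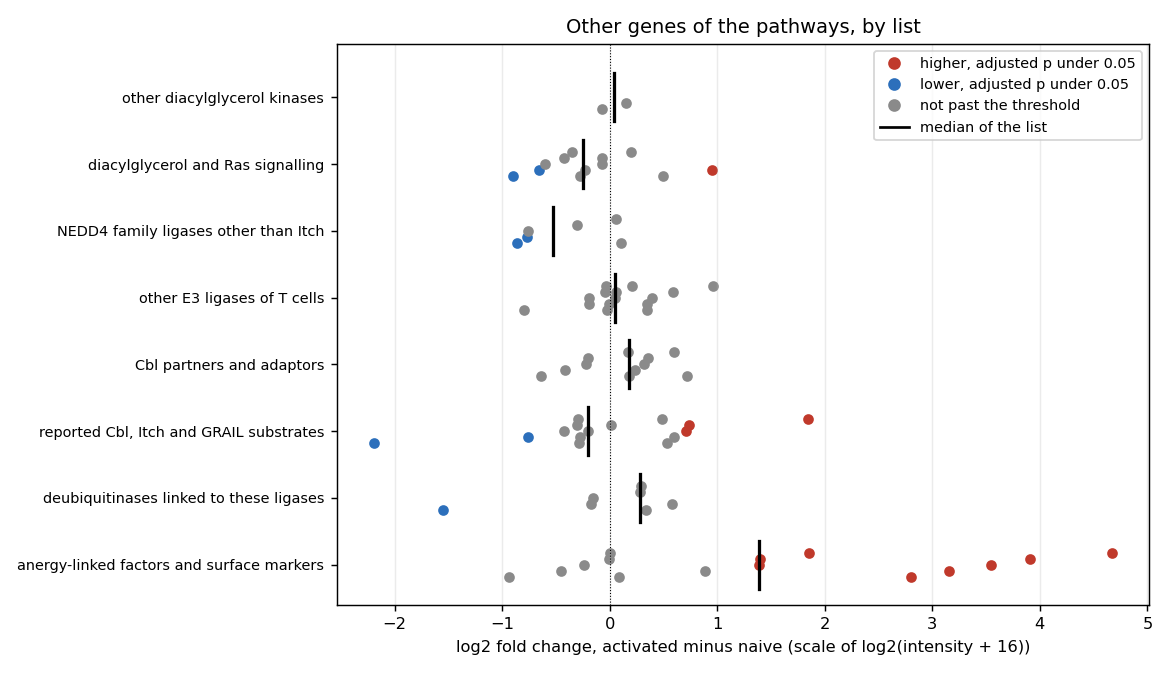
Log2 fold change (activated minus naive, scale of log2(intensity + 16)) of the tested genes of the 8 pathway lists, 1 point per gene, red where higher and blue where lower at an adjusted p under 0.05, with the list median as a black bar. The list of anergy-linked factors and surface markers has its median at 1.39 with 8 red points, and no other list has a median above 0.28. The lists were chosen with earlier results of these data known.

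Of 6 tested NEDD4 family ligases other than Itch, 0 were higher and 2 lower, with a median of -0.53. They were Smurf2 and Smurf1, which target the TGF-beta pathway. Smurf2 was at 169, 219.9 and 183 in activated replicates 1 to 3, against 333 and 384 in the naive pair, with a log2 fold change of -0.86 ± 0.19 (SE, limma adjusted p = 0.020). It lost this call when activated replicate 1 or 3 or naive replicate 2 was left out, and the call of Smurf1, at -0.77 (adjusted p = 0.048), was lost on leaving out any array. In all, the Smurf1 call was lost under 11 of 17 alternatives, among them no filter, a pseudocount of 1 and no intensity trend. Of 15 tested other E3 ligases of T cells and 11 tested partners and adaptors of Cbl proteins, 0 were called in either direction. Their medians were 0.05 and 0.18. In each list 2 were higher and 1 lower at an unadjusted limma p under 0.05. The share of all genes under that unadjusted threshold was not counted, so these counts show no excess over it. With the replicate number as a block, Peli1 was called lower and Dtx1 higher in the first list and Cd2ap lower in the second, and with the bioC split as a block, Dtx1 and Rnf149 were called higher in the first and Ubash3a in the second. In the first list Dtx1, a Notch pathway ligase tied to anergy, was at 440, 907 and 601 in activated replicates 1 to 3, against 281 and 348 in the naive pair, and did not pass (adjusted p = 0.059); it is named after its value was seen.

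Of 15 tested known or putative substrates of Cbl proteins, Itch and GRAIL, 3 were higher and 2 lower, with a median of -0.20. Tnfrsf4, the costimulatory receptor OX40, was at 508, 512 and 496 in activated replicates 1 to 3, against 168 and 97.7 in the naive pair, a log2 fold change of 1.85 ± 0.22 (SE, limma adjusted p = 7.1e-04). The Src family kinase Fyn was higher by 0.73 on the log2 scale (adjusted p = 0.036). Jun, an AP-1 subunit that Itch ubiquitinates, was at 37.8, 25.5 and 42.0 in activated replicates 1 to 3, against 143 and 320.1 in the naive pair, a log2 fold change of -2.19 ± 0.31 (SE, limma adjusted p = 0.0020). Cflar, the caspase inhibitor c-FLIP, was lower at -0.76 on the log2 scale (adjusted p = 0.022), and its call was lost on leaving out any array. That of Fyn was lost on leaving out any but activated replicate 3. Both calls were also lost without the intensity trend. The call of Cflar was lost too with the replicate number as a block, and that of Fyn without the filter. Of 7 tested deubiquitinases, 0 were higher and 1 lower, with a median of 0.28; the one was Usp18, an interferon-induced protease that removes ISG15, at -1.55 on the log2 scale (adjusted p = 8.9e-04). Of 15 tested anergy-linked factors and surface markers, 8 were higher and 0 lower. At an unadjusted limma p under 0.05, 9 were higher and 2 lower, again with no share of all genes to set beside them. Without activated replicate 1, 7 were called higher and 1 lower. The surface marker Nt5e, named after its values were seen, had a log2 fold change of -0.93 and did not pass (limma adjusted p = 0.13). It was dim, at 18.3, 1.1 and 3.1 in activated replicates 1 to 3, against 29.8 and 23.8 in the naive pair. The largest log2 fold changes were those of Ctla4, an inhibitory receptor, and Nr4a1, an orphan nuclear receptor, at 4.67 and 3.91. Ctla4 was at 428, 785 and 682 in activated replicates 1 to 3, against 4.6 and 13.4 in the naive pair, where the filter intensities were 13.4 and 10.8. With the naive values that dim, the size of its change depended on the pseudocount, at 6.09 with a pseudocount of 1 and 3.22 with 64. The transcription factors Egr2 and Egr3, known to induce Cblb in mouse T cells and named after their values were seen, had log2 fold changes of 2.80 and 3.16. The NFAT genes Nfatc1 and Nfatc2 of the same list, also named after their values were seen, were at -0.01 and -0.45. Neither was called. Any part of these factors in the change of Cblb was not tested.

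The genes nearest in pattern to 2 members were also sought. Likeness was the root mean square difference between log2 values centred over the 5 arrays, among 12872 other genes. For Ndfip1 (on 1424821_at, the largest rise by the brightest probe set), the nearest were Dcps, Hat1 and Selenoh, at differences of 0.031, 0.041 and 0.048 log2 units. For Dgka they were Kri1, AI467606 and Ntrk3, at 0.031, 0.050 and 0.059. Ntrk3 was dim, at 18.8 to 23.0 in the 3 activated samples, against 49.1 to 53.5 in the naive pair. With 5 arrays, likeness mostly restates the group difference.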

How the data were processed

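The deposited table held linear intensity values of 45101 probe sets on 5 Affymetrix arrays, 1 value each. Per the labels' protocols, RNA was Trizol-extracted and made into biotinylated cRNA; neither the summary method nor detection calls are stated there. The 2% trimmed mean was 100.0 on every array, as a global scaling leaves it. The platform annotation gave 34945 probe sets 1 gene symbol, 932 several and 9160 none, and 64 were array controls. Names were checked against RefSeq genes of GRCm38.p6.

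Intensities were transformed as log2(intensity + 16). Probe sets above the 40th percentile of their array on at least 2 arrays were tested with limma 3.58.1 (R 4.3.3), with lmFit on the group alone and eBayes with an intensity trend, two-sided, and p-values were adjusted by the Benjamini-Hochberg method (threshold 0.05). The code was tested on simulated data, where large changes were nearly always recovered, many changes near the size of those called here were missed, and the share of false calls ran above the threshold. Intervals cover 95%. The number of arrays, 3 against 2, limits precision. Named pathway genes were the 2 largest rises and falls among called genes of each list, and the 3 genes nearest in pattern to the member with the largest rise and to that with the largest fall; exceptions are marked or are members. Rasgrp1, Dgkh, Dgkq and the markers were also named outside that rule. The members and lists were chosen with earlier results of these data known. No pair of arrays shared more than 0.947% of its values.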

Additional observations from a re-analysis of the deposited data

How the results depend on the processing

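With 2 naive arrays, 1 array can decide a call. Without activated replicate 2 or naive replicate 2, 4 member probe sets were higher and 0 lower; leaving out single arrays gave 4 to 7 higher and 0 to 1 lower, and over all probe sets 723 to 1331 higher and 324 to 645 lower, against 1403 and 859 on all arrays. Without the intensity trend 4 member probe sets were higher, and with 1 probe set per gene 2 of 10 were (Dgkz and Ndfip1), where Cblb is read on 1458469_at. Over all probe sets, 870 were higher and 510 lower without the filter, 819 and 533 with 1 probe set per gene, and 1486 lower with the bioC split as a block. The replicate number as a block gave 9 member probe sets higher and 1 lower, with Cbl 1450457_at passing at 0.99 and Cbl 1455886_at at 0.90, and with the bioC split as a block 1455886_at passed at 0.57. Leaving out single arrays moved 1450457_at from 0.46 to 1.26 and 1455886_at from 0.47 to 0.90. In the pathway lists, the replicate block left 1 lower call each in diacylglycerol and Ras signalling, NEDD4 family ligases and substrates, and the bioC split as a block added Tnfaip3 as a higher deubiquitinase. The numbers carry no stated pairing, and deviations of same-numbered arrays correlated at 0.17 and -0.12. The cause of these shifts was not tested.

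All values that changed sign belonged to probe sets that had not passed. With the replicate block, Cbl 1434829_at was at -0.088, Dgke 1423000_a_at at -0.011 and Itch 1459332_at at 0.068, and with array weights the last was at 0.0019. Leaving out single arrays moved Cbl 1434829_at from -0.088 to 0.085, Dgkd 1439873_at from -0.61 to 0.46, Dgkd 1454655_at from -0.32 to 0.63, Dgke 1423000_a_at from -0.28 to 0.36, Dgke 1438078_at from -0.63 to 0.072, Itch 1415769_at from -0.084 to 0.62, Itch 1431316_at from -0.41 to 0.21, Itch 1459332_at from -0.45 to 0.38, Ndfip2 1433204_at from -0.16 to 0.42 and Rnf128 1418318_at from -0.10 to 0.23. Of 422 member values under the alternatives, 378 kept direction and side of the threshold, 19 lost a call, 6 gained one and 19 changed sign.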
